A study of Saccharomyces cerevisiae with 6 samples.

Results

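The 10 genes of trehalose and glycogen metabolism described here were taken by name from a table of 7122 yeast genes. They are *TPS1*, *TPS2*, *TPS3* and *TSL1* of trehalose synthesis, *NTH1* of trehalose breakdown, *GSY1*, *GSY2* and *GLC3* of glycogen synthesis, and *GPH1* and *GDB1* of glycogen breakdown. RNA was sequenced from 3 *ths1-C268A* and 3 WT cultures of *Saccharomyces cerevisiae*, which the study calls biological replicates and labels A to C within each strain. In *ths1-C268A*, Ala replaces a Cys that ThrRS needs to edit. ThrRS loads Thr onto its tRNA and removes Ser loaded by mistake, and WT has the unchanged enzyme. Both are haploid laboratory strains of the BY4741 background, and every culture was grown in rich glucose medium (YPD) at 30 °C and held at 37 °C for 2 h, so all values are from heated cells and none describes the effect of heat itself. The mutation was made by CRISPR, and the study notes that it also makes ThrRS less stable in the heat.

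Trehalose and glycogen are the main stores of glucose in yeast, and both are built from glucose 6-phosphate by way of UDP-glucose. Trehalose is made by a complex in which Tps1 forms trehalose 6-phosphate, Tps2 removes the phosphate, and Tps3 and Tsl1 are regulatory subunits. Glycogen chains are extended by the glycogen synthases Gsy1 and Gsy2 and branched by Glc3, and they are shortened by the phosphorylase Gph1 and the debranching enzyme Gdb1. Trehalose protects proteins and membranes in the heat, its synthesis genes are known heat-induced targets of the stress factors Msn2 and Msn4, and the neutral trehalase Nth1 clears it during recovery.

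As checks of the samples, *LEU2*, *MET17* and *URA3*, which are deleted in BY4741, were listed at 0 in all 6 samples, and *HIS3*, which is deleted only in part, averaged 240 FPKM in *ths1-C268A* and 94.7 FPKM in WT. The 6 markers of mating type a were present, at 55.8 to 2065 FPKM in *ths1-C268A* and 57.3 to 1078 FPKM in WT. *MFA1*, *STE2* and *AGA2* were called higher in *ths1-C268A* (log2 fold changes of 0.85, 0.36 and 0.74), and the other 3 were not called. Of the 4 markers of mating type alpha, *STE3* was low, at up to 5.84 FPKM in *ths1-C268A* and up to 6.00 FPKM in WT. *MF(ALPHA)1* was low too, at 0.19, 0.10 and 0.19 FPKM in *ths1-C268A*, against 4.25, 2.21 and 5.42 FPKM in WT. It was called lower (log2 fold change -2.04, adjusted p = 0.0097 from limma), on 5 fragments in *ths1-C268A* and 125 in WT. *SAG1* and *MF(ALPHA)2* were not low, at 25.6 to 46.6 FPKM in *ths1-C268A* and 27.8 to 43.5 FPKM in WT. *THS1* itself was 217, 287 and 226 FPKM in the *ths1-C268A* samples A to C, against 180, 172 and 153 FPKM in WT, which does not check the labels because the mutation changes the protein and not the RNA's detection. Its log2 fold change was 0.52 (adjusted p = 0.0183 from limma), and 0.062 and 0.0707 were the adjusted p without WT replicate B or C. The genes of the table held 17806318 to 19114041 fragments per *ths1-C268A* sample and 16597937 to 17761143 per WT sample. Each of the 10 genes had between 5061 and 45424 fragments in every sample, so counting error was small beside the spread between cultures.

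All 10 genes carry a stress response element (STRE, AGGGG or its reverse complement CCCCT), the site bound by Msn2 and Msn4, in the 500 bp before the start codon in the R64 genome. Of 6655 protein-coding genes with such a window, 33.7% hold at least 1 STRE and 8.04% hold 2 or more, while 9 of the 10 genes hold 2 or more. *TPS1* has 6, *TSL1* 5, *TPS2* 4, *NTH1* and *GLC3* 3 each, *TPS3*, *GSY1*, *GSY2* and *GPH1* 2 each, and *GDB1* has 1. Not every window is free of other genes. Those of *TPS1*, *TPS3*, *TSL1* and *GDB1* overlap *MEO1*, YMR262W, YML100W-A and *DPM1*, in that order. A heat shock element, searched as GAA, TTC and GAA with 2 bases between each, on both strands, was found only before *TSL1*, 354 bp from the start codon, and in 1.41% of all windows. The Gcn4 site TGACTCA, or TGAGTCA on the other strand, was in none of the 10 windows and in 4.12% of all windows. The stretches that span the STREs are given for the 3 genes whose RNA fell in *ths1-C268A*, namely *TPS1* (chrII:490617-490874, minus strand), *TPS2* (chrIV:593393-593599, plus strand) and *GSY1* (chrVI:176709-176868, minus strand), and for the 2 regulatory subunits *TSL1* (chrXIII:70236-70473, plus strand) and *TPS3* (chrXIII:793572-793614, minus strand). They are read 5′ to 3′ on the strand of the gene from the RefSeq R64 genome, with each STRE in capitals.
TPS1: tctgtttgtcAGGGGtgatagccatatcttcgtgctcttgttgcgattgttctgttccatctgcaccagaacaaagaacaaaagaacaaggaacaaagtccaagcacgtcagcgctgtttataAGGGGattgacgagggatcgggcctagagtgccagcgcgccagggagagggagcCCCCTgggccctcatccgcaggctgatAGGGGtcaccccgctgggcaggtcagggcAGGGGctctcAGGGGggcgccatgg
TPS2: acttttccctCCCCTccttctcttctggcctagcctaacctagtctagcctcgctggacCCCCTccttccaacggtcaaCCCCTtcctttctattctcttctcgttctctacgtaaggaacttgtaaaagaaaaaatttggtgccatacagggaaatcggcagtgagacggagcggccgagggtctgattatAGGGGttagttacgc
GSY1: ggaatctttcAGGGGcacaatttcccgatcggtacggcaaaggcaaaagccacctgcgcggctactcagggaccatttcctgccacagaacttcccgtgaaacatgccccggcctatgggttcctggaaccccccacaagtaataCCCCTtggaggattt
TSL1: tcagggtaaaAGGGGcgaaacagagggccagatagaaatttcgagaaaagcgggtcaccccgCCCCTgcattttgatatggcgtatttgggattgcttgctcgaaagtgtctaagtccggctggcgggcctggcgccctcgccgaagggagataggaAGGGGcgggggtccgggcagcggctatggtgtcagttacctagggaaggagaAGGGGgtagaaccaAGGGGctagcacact
TPS3: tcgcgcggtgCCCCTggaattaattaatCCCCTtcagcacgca

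The spacing of the elements differed among these genes. In *TPS1*, 5 of the 6 lie between 239 and 359 bp before the start codon, in *TPS3* the pair lies 217 and 235 bp before it, and in *GSY1* the elements are at 332 and 467 bp. A match is a string of letters and not evidence of binding.

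**Figure D1:**
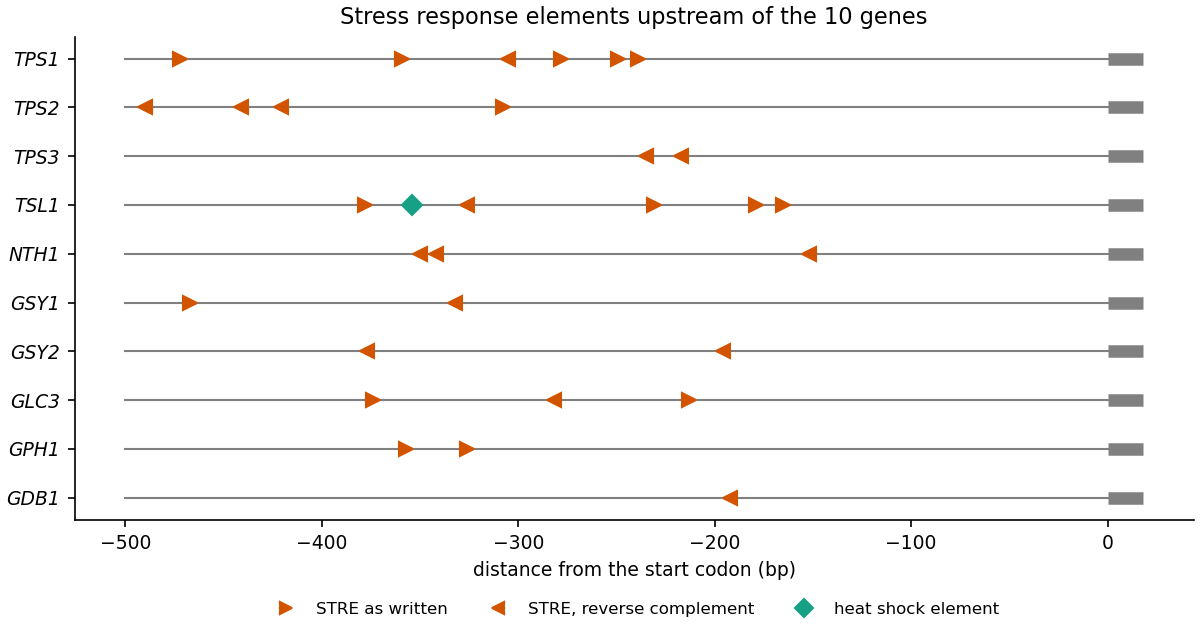
Position of STREs (triangles, pointing right for AGGGG and left for CCCCT) and of the heat shock element (diamond) in the 500 bp before the start codon of each gene, with distance in bp on the horizontal axis and the start of the coding region as a grey block. *TPS1* has 6 STREs and *GDB1* has 1, and the heat shock element is before *TSL1*.

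*TPS1* and *TPS2*, which encode both catalytic steps of trehalose synthesis, fell in *ths1-C268A*, to 65.7 and 72.3% of their WT means, as did *GSY1*, a glycogen synthase gene, to 66.4%. None of the 10 genes was called higher, and the other 7 did not pass the test. The comparison used limma on log2(FPKM + 1) over 6447 genes, where FPKM is the number of fragments scaled to the length of the gene and the total of the sample, and a gene passed at an adjusted p under 0.05 after Benjamini-Hochberg adjustment over all genes tested. In the same test 12.1% of all genes were lower and 14.2% were higher. The log2 fold change was below 0 for 9 of the 10 genes, against 50.3% of all genes, and its median was -0.17 over the 10 genes and -0.0025 over all genes. The samples are bulk RNA of whole cultures, so less RNA in every cell and the same RNA in fewer cells cannot be told apart.

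*TPS1* (YBR126C, chromosome II of R64, 488905 to 490392, minus strand) encodes trehalose 6-phosphate synthase. It was 878.8, 679.3 and 822.4 FPKM in *ths1-C268A* (A, B, C), against 1164, 1193 and 1266 FPKM in WT. The groups did not overlap, and the highest *ths1-C268A* value lay well below the lowest WT value. The log2 fold change was -0.61 (standard error 0.12, adjusted p = 0.0106 from limma). *TPS1* was the most abundant of the 10 genes per unit of length in both strains.

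*TPS2* (YDR074W, chromosome IV, 593893 to 596583, plus strand) encodes trehalose 6-phosphate phosphatase. It was 516.7, 453.4 and 633.3 FPKM in *ths1-C268A*, against 758.5, 742.3 and 717.0 FPKM in WT. The groups did not overlap, although replicate C of *ths1-C268A* came closer to WT than the other two. The log2 fold change was -0.48 (standard error 0.13, adjusted p = 0.0291 from limma). Refitted with 1 sample fewer, *TPS2* stayed past the test in 1 of 6 fits. Adjusted p was 0.0905, 0.0979 and 0.0714 from limma without WT replicate A, B or C, 0.0519 and 0.0691 without *ths1-C268A* replicate A or B, and 0.00992 without *ths1-C268A* replicate C.

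The genes of the regulatory subunits did not pass the test. *TSL1* (YML100W, chromosome XIII, 70624 to 73920, plus strand) was 504.5, 480.7 and 607.3 FPKM in *ths1-C268A*, against 633.7, 582.4 and 568.6 FPKM in WT. Its groups overlapped, and the log2 fold change of -0.17 had a 95% interval from -0.43 to 0.09. *TPS3* (YMR261C, chromosome XIII, 790205 to 793369, minus strand), the least abundant of the 10 genes, was 83.8, 102.6 and 104.1 FPKM in *ths1-C268A*, against 84.4, 84.0 and 78.4 FPKM in WT. It was the only member with a positive log2 fold change, 0.23 with a 95% interval from -0.0043 to 0.46 (adjusted p = 0.128 from limma). Replicates B and C of *ths1-C268A* lay above WT and replicate A within it, and without *ths1-C268A* replicate A *TPS3* passed as higher (log2 fold change 0.33, adjusted p = 0.0194 from limma).

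**Figure D2:**
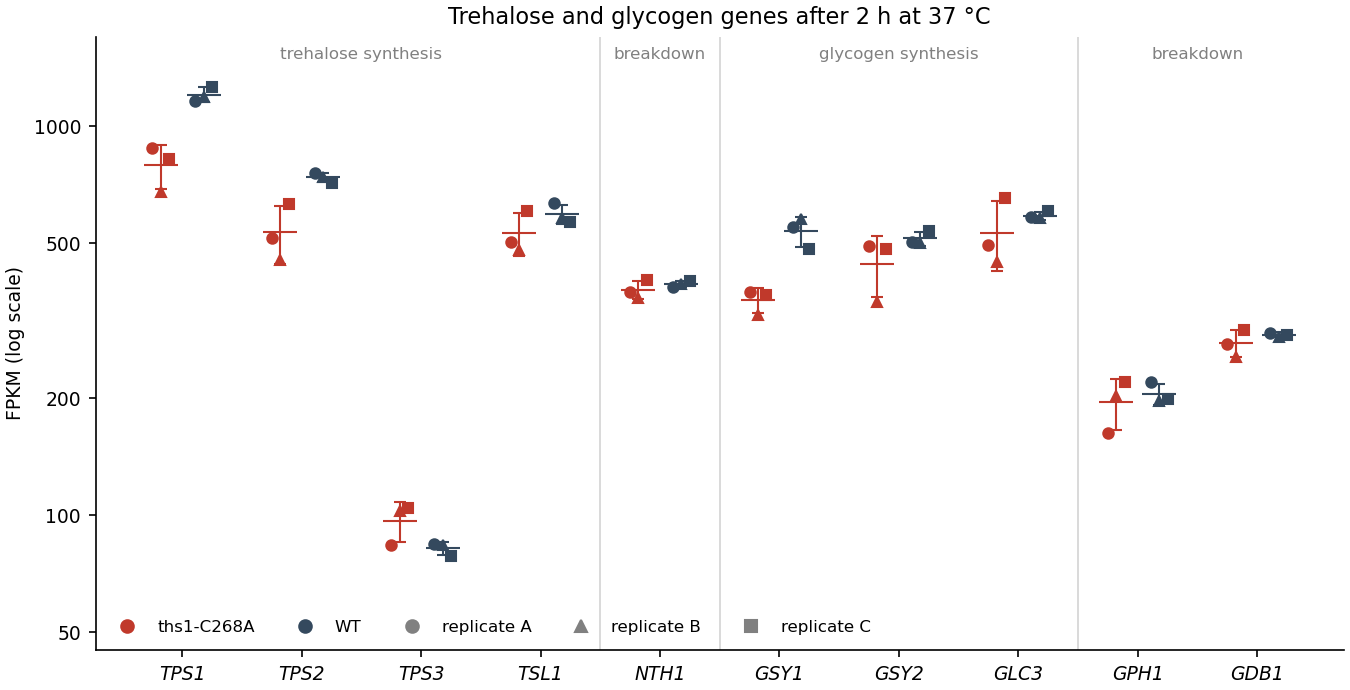
FPKM of the 10 genes on a log axis, in *ths1-C268A* (red, left of each pair) and WT (blue-grey, right). Points are samples, with circles, triangles and squares for replicates A, B and C, and bars are the mean and SD of 3 samples. The groups are apart for *TPS1*, *TPS2*, *GSY1* and, by a narrow gap, *GSY2*.

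*NTH1* (YDR001C, chromosome IV, 450220 to 452475, minus strand), the neutral trehalase gene, did not pass the test. It was 374.2, 362.7 and 402.8 FPKM in *ths1-C268A*, against 386.6, 393.4 and 400.7 FPKM in WT. The values overlapped, and the 95% interval of the log2 fold change, -0.05, ran from -0.24 to 0.14.

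Among the genes of glycogen synthesis, *GSY1* fell and the others did not pass the test. *GSY1* (YFR015C, chromosome VI, 174265 to 176391, minus strand) was 375.9, 326.7 and 369.1 FPKM in *ths1-C268A*, against 551.4, 577.3 and 485.0 FPKM in WT. The groups did not overlap, and the 3 *ths1-C268A* cultures were closer to each other than for most of the other genes. The log2 fold change was -0.59 (standard error 0.10, adjusted p = 0.00661 from limma).

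*GSY2* (YLR258W, chromosome XII, 660716 to 662833, plus strand), the other glycogen synthase gene, was 493.4, 352.8 and 484.4 FPKM in *ths1-C268A*, against 504.3, 501.5 and 539.7 FPKM in WT. All 3 *ths1-C268A* values lay below the lowest WT value, replicates A and C by a narrow gap and B by a wide one. Its log2 fold change of -0.23 had a 95% interval from -0.54 to 0.08. In all, 4 of the 10 genes had groups that did not overlap, each of them lower in *ths1-C268A*, where 21.1% of all genes tested had groups apart in that direction, 24.5% in the other and 45.6% in either. *GLC3* (YEL011W, chromosome V, 133120 to 135234, plus strand), the branching enzyme gene, was 495.2, 447.2 and 654.8 FPKM in *ths1-C268A*, against 583.7, 580.0 and 604.9 FPKM in WT. Replicate C of *ths1-C268A* lay above every WT sample and A and B lay below. The log2 fold change of *GLC3* was -0.17 (95% interval from -0.49 to 0.16), and without *ths1-C268A* replicate C it was -0.32 (adjusted p = 0.0497 from limma).

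The genes of glycogen breakdown had values that overlapped between the strains. *GPH1* (YPR160W, chromosome XVI, 861306 to 864014, plus strand), glycogen phosphorylase, was 162.5, 203.0 and 219.9 FPKM in *ths1-C268A*, against 219.6, 197.1 and 198.6 FPKM in WT. Only replicate A of *ths1-C268A* lay below the WT samples, and without it the log2 fold change was 0.04 in place of -0.08. Another 2 rows of the table overlap *GPH1*, and both were listed at 0 in all 6 samples, while no other of the 10 genes is overlapped by a row of the table. *GDB1* (YPR184W, chromosome XVI, 902044 to 906654, plus strand), the debranching enzyme, was 276.0, 255.2 and 299.6 FPKM in *ths1-C268A*, against 295.0, 286.8 and 291.3 FPKM in WT. Its values lay on either side of the narrow WT range. The 95% intervals of the log2 fold change ran from -0.35 to 0.19 for *GPH1* and from -0.27 to 0.13 for *GDB1*.

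**Figure D3:**
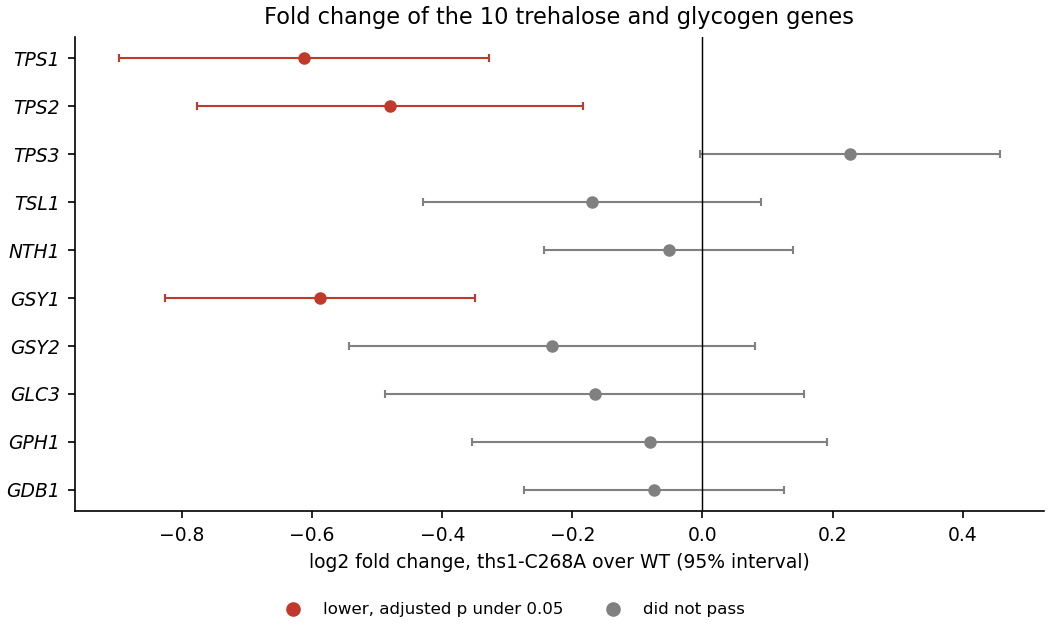
Log2 fold change of each gene, *ths1-C268A* over WT, with its 95% interval from limma, not adjusted for the number of genes. *TPS1*, *TPS2* and *GSY1* (red) passed an adjusted p of 0.05, and the other 7 (grey) did not.

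Read by role, 3 of the 7 genes of synthesis were lower and none of the 3 genes of breakdown passed. Their median log2 fold changes were -0.23 and -0.07. The difference between the roles was not tested. Of all genes tested 12.1% were lower, so 3 genes without a call do not show that breakdown was spared. Outside this set, the neutral trehalase gene *NTH2* was called lower (log2 fold change -0.48, adjusted p = 0.0459 from limma). That call was lost in most fits with a sample left out. The breakdown genes *ATH1* and *SGA1*, also outside the set, did not pass. The order of abundance per unit of length was similar in the strains. *TPS1* and *TPS2* came first and *GDB1*, *GPH1* and *TPS3* last in both. *GSY1* was above *GSY2* on average in WT and below it in *ths1-C268A*. Among neighbours in that order, *TPS2*, *GLC3* and *TSL1* lay within their SD of each other in *ths1-C268A* at 534.4 ± 91.2, 532.4 ± 108.7 and 530.9 ± 67.3 FPKM, as did *TSL1* and *GLC3* in WT at 594.9 ± 34.3 and 589.5 ± 13.4 FPKM (SD, n = 3 each).

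The 3 *ths1-C268A* cultures differed from each other more than the WT cultures did. Relative to the WT mean of each gene, the log2 values of the 10 genes had medians of -0.24, -0.35 and 0.03 in the *ths1-C268A* samples A to C, against 0.03, -0.02 and -0.02 in WT. Among *ths1-C268A* samples, replicate B had the lowest value for 8 of the 10 genes and replicate C the highest for 7. Summed, the 10 genes came to 4161, 3664 and 4598 FPKM in *ths1-C268A*, against 5181, 5138 and 5150 FPKM in WT. The SD of log2(FPKM + 1) was larger in *ths1-C268A* than in WT for 9 of the 10 genes, with medians of 0.19 and 0.06, and for 74.8% of all genes tested, with medians of 0.16 and 0.09.

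Properties of the libraries moved with strain. Fragments outside the genes of the table made up 10.6 to 13.4% of the FPKM denominator in *ths1-C268A* and 18.3 to 18.7% in WT. When protein-coding genes were scaled to the same total in each sample, the median log2 fold change over every gene tested was -0.12, and *TPS1*, *TPS2* and *GSY1* had log2 fold changes of -0.73, -0.60 and -0.70. Fold change also rose with gene length (Spearman's rho 0.37 over 6176 protein-coding genes, a description, since genes are not replicates), and the 10 genes are long, with a median of 2474 bp against 1098 bp over all genes tested. Within samples, rho between length and the deviation from the mean of each gene was -0.08, 0.36 and 0.39 in *ths1-C268A* A to C, against -0.14, -0.32 and -0.43 in WT. After a correction for length and GC content the values for *TPS1*, *TPS2* and *GSY1* were -0.66, -0.68 and -0.73, each with the call kept. The median over the 10 genes was then -0.31 and that of all genes 0.00058, and *TPS3* was at 0.0021.

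Several of these genes have a paralogue, and the ratio within a pair does not depend on how the samples were scaled. It can still depend on gene length and GC content, for which the ratios were not corrected. After that correction the log2 fold changes were -0.30 for *TSL1* and 0.0021 for *TPS3*. They were -0.38 for *GSY2* and -0.73 for *GSY1*. The coding sequences of *GSY1* and *GSY2* are identical at 73.8% of aligned bases and those of *TPS3* and *TSL1* at 67.9%, with no shared window of 50 bases in either pair, so no stretch of 50 bases from the one matches the other exactly. The longest run that is the same in *GSY1* and *GSY2* begins at base 58 of both coding sequences and has 20 bases, agggttggtggtatttactc, and is given to show how far these genes differ in sequence. The log2 ratio of *TSL1* to *TPS3* was 2.58, 2.22 and 2.53 in *ths1-C268A*, against 2.90, 2.78 and 2.84 in WT, a difference of -0.40 with no overlap. An exact two-sided permutation test gave p = 0.1, the smallest that 3 samples against 3 allow, and 0.125 adjusted over 5 pairs. The log2 ratio of *GSY2* to *GSY1* was 0.39, 0.11 and 0.39 in *ths1-C268A*, against -0.13, -0.20 and 0.15 in WT, a difference of 0.36 with overlapping groups (exact permutation p = 0.2, adjusted 0.2).

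A further 3 pairs of the pathway were compared after their values had been seen. The log2 ratio of *NTH1* to *NTH2*, which encode the neutral trehalases, was 0.45, 1.03 and 0.79 in *ths1-C268A*, against 0.37, 0.36 and 0.26 in WT. That of *PGM2* to *PGM1*, the phosphoglucomutase genes, was 4.64, 4.69 and 4.90 in *ths1-C268A*, against 4.22, 4.10 and 4.29 in WT. That of *HXK2* to *HXK1*, the hexokinase genes, was -2.36, -1.95 and -2.57 in *ths1-C268A*, against -2.65, -2.65 and -2.79 in WT. In each of these pairs the ratio was higher in every *ths1-C268A* sample than in any WT sample (exact permutation p = 0.1 each, adjusted 0.125). The denominators *NTH2*, *PGM1* and *HXK1* were themselves called lower in *ths1-C268A*. The shared direction thus largely follows from the choice of pairs, and these p-values are a description only.

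**Figure D4:**
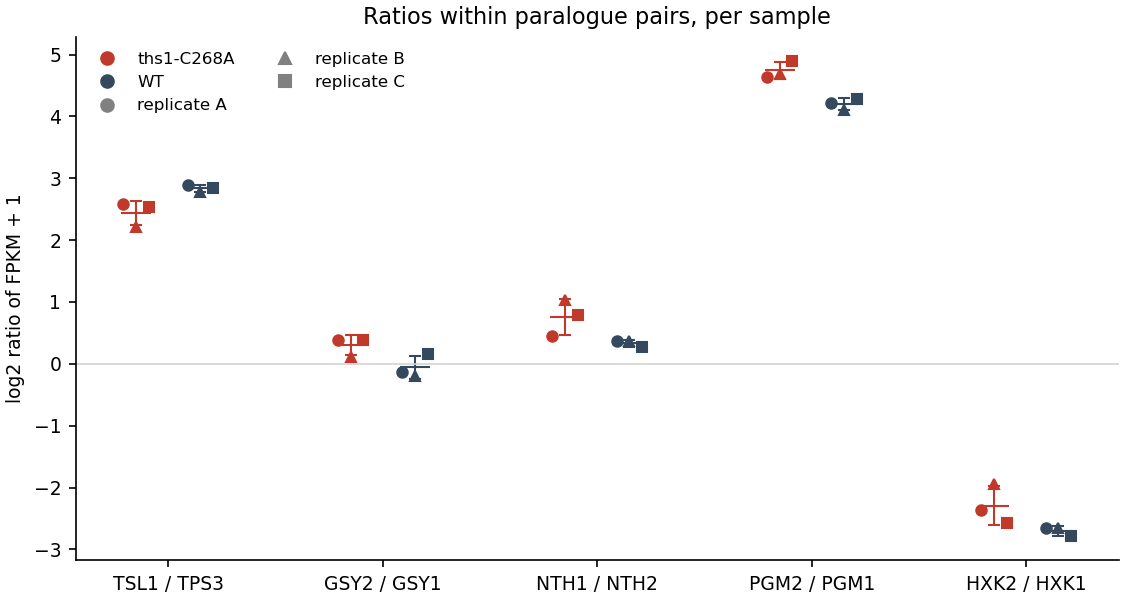
Log2 ratio of FPKM + 1 within 5 paralogue pairs, per sample, in *ths1-C268A* (red, left) and WT (blue-grey, right), with the mean and SD of 3 samples. The groups are apart for every pair except *GSY2* to *GSY1*, by 0.40 for *TSL1* to *TPS3* and 0.54 for *PGM2* to *PGM1* in the means.

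Around the 10 genes, 40 other genes of the pathway were read from the same fit, and 5 were called lower and 2 higher, while 33 did not pass. Their median log2 fold change was -0.03, and of all genes tested 12.1% were lower and 14.2% higher. Of 6 genes that supply sugar phosphates, *HXK1*, a hexokinase, and *PGM1*, the minor phosphoglucomutase, were lower. *HXK1* was 1589, 1316 and 1766 FPKM in *ths1-C268A*, against 2227, 2229 and 2200 FPKM in WT (fold change -0.52 in log2, adjusted p = 0.031 from limma). *PGM1* was 27.9, 26.4 and 27.3 FPKM in *ths1-C268A*, against 39.2, 40.0 and 37.0 FPKM in WT (log2 fold change -0.50, adjusted p = 0.00604 from limma). The groups were apart for both genes. *HXK1* shares 143 bp with a low row on its strand, and it missed the threshold without any 1 WT sample or *ths1-C268A* replicate B (0.0688 to 0.111), while *PGM1* kept its call throughout. *UGP1*, whose enzyme makes the UDP-glucose of both pathways, and *PGM2*, the major phosphoglucomutase gene, had log2 fold changes of -0.06 and 0.05 and did not pass.

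Of the 3 other genes of trehalose use, *NTH2* was lower, at 272.8, 176.8 and 233.1 FPKM in *ths1-C268A*, against 299.7, 305.6 and 333.5 FPKM in WT (log2 fold change -0.48, adjusted p = 0.0459 from limma). The call for *NTH2* was lost with no filter (0.0557), without the variance trend (0.0768) and without any 1 sample but *ths1-C268A* replicate A (0.0778 to 0.137). The acid trehalase *ATH1* and the transporter *MAL11* did not pass. None of the 3 genes that prime glycogen or release glucose from it passed, with log2 fold changes of 0.16 for *GLG1*, -0.02 for *GLG2* and 0.06 for *SGA1*.

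Of 14 regulators of glycogen metabolism, 2 were lower and 2 were higher. *GIP2*, a putative subunit that targets protein phosphatase 1, was 118.9, 130.8 and 141.0 FPKM in *ths1-C268A*, against 163.3, 168.5 and 162.0 FPKM in WT (log2 fold change -0.34). *PCL10*, a cyclin of the kinase Pho85 that phosphorylates glycogen synthase, was 81.1, 59.2 and 74.4 FPKM in *ths1-C268A*, against 94.5, 105.4 and 109.5 FPKM in WT (-0.53). *PSK2*, a PAS kinase gene with a row on the opposite strand over 644 bp of it, was 42.6, 50.9 and 46.4 FPKM in *ths1-C268A*, against 31.7, 30.0 and 28.8 FPKM in WT (0.61). *GLC7*, the catalytic subunit of protein phosphatase 1, was 348.8, 426.8 and 396.4 FPKM in *ths1-C268A*, against 320.6, 312.1 and 302.6 FPKM in WT (0.32). Adjusted p from limma was 0.0234, 0.0176, 0.0044 and 0.0428 for these genes in the order given. Of the 4, *PSK2* kept its call under every setting and without any 1 sample. *GIP2* lost it without any 1 WT sample (0.069 to 0.106) and *PCL10* without WT replicate B or C (0.0691 and 0.0699). *GLC7* lost it without any 1 sample but *ths1-C268A* replicate A (0.0815 to 0.139), when protein-coding genes were scaled to the same total (0.121), without the variance trend (0.0591) and with the replicate block (0.0709).

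None of the 8 regulators of neutral trehalase and none of the 6 regulators of stress transcription passed the test. The genes of the 14-3-3 proteins that activate Nth1 had log2 fold changes of -0.25 for *BMH1* and 0.30 for *BMH2*. *MSN4* was 126.4, 144.8 and 162.2 FPKM in *ths1-C268A*, against 118.9, 119.5 and 109.0 FPKM in WT, and its log2 fold change of 0.31 had a 95% interval from 0.07 to 0.55 before adjustment (adjusted p = 0.0571 from limma). *YAK1*, the most abundant of the stress regulators, had a log2 fold change of -0.06.

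**Figure D5:**
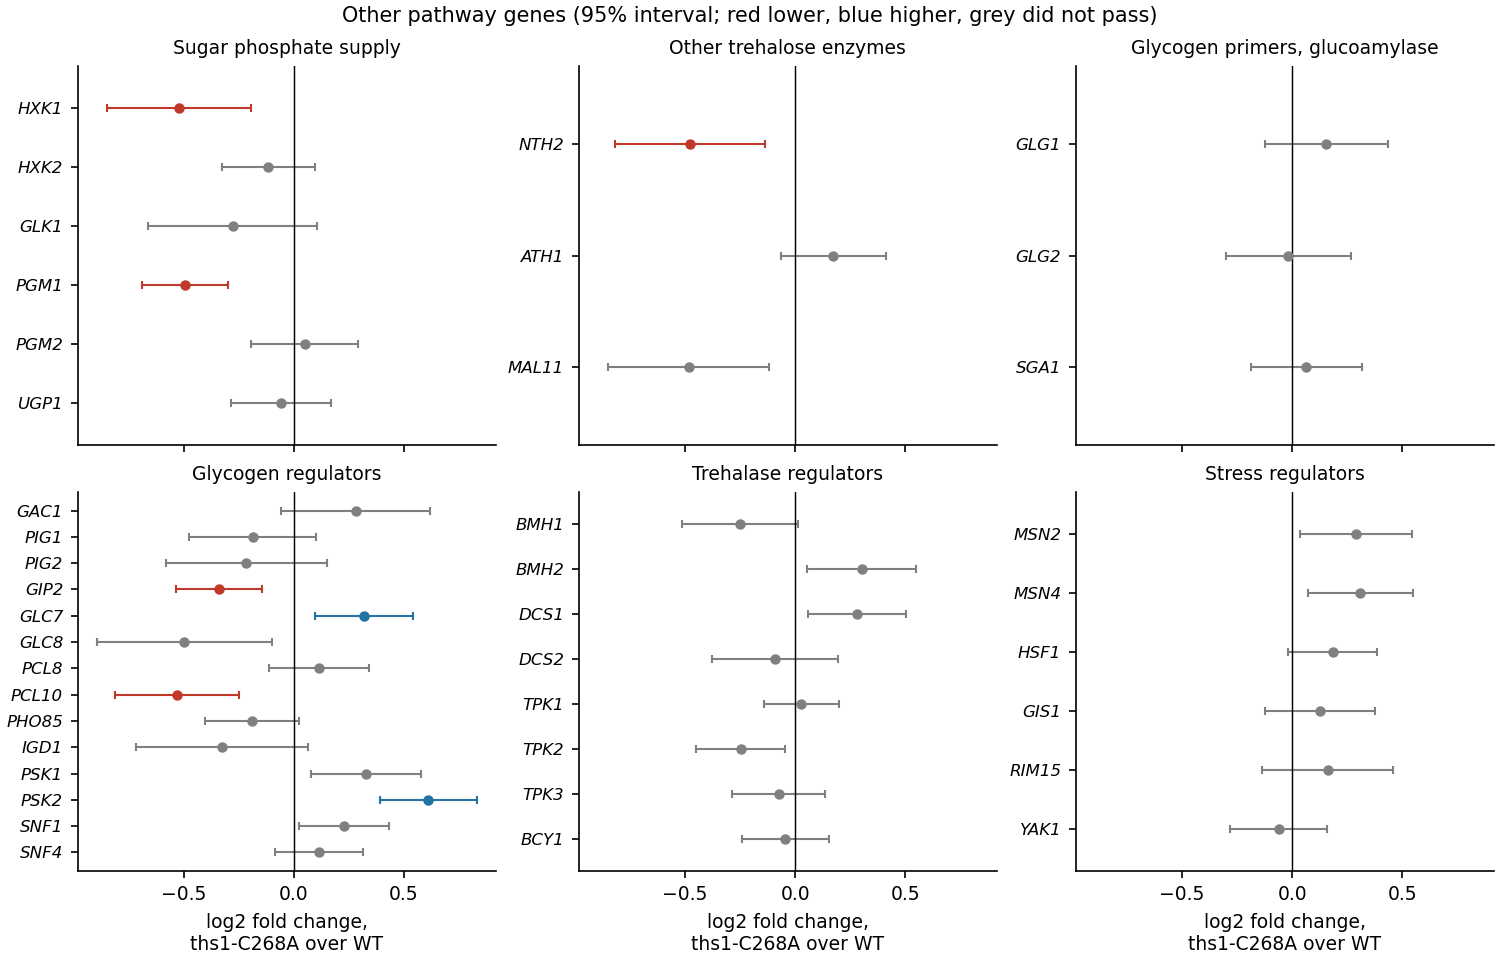
Log2 fold change, *ths1-C268A* over WT, of 40 other genes of the pathway in 6 groups, with 95% intervals from limma not adjusted for the number of genes. *HXK1*, *PGM1*, *NTH2*, *GIP2* and *PCL10* (red) were lower, *GLC7* and *PSK2* (blue) were higher, and 33 (grey) did not pass.

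The decreases of *TPS1*, *TPS2* and *GSY1* were set beside other genes known as targets of Msn2 and Msn4. Of 20 such genes, 2 were lower, 1 was higher and 17 did not pass. Their log2 fold changes had a median of -0.08. The lower genes were *ALD3*, an aldehyde dehydrogenase, and *GND2*, a phosphogluconate dehydrogenase, with log2 fold changes of -0.73 and -0.70, and the higher gene was *DDR48* (0.58), which shares 1085 bp with another row on its strand. Without 1 sample the call was lost for *ALD3* (WT replicate B or C, *ths1-C268A* replicate B, adjusted p up to 0.0653 from limma), *GND2* (WT replicate C, 0.0564) and *DDR48* (WT replicate A or C, *ths1-C268A* replicate B, up to 0.0682). *GRE1* had the next smallest p, at -0.34 in log2 (adjusted p = 0.0659 from limma). Sorted by sequence, 505 genes tested had 2 or more STREs, and 10.7% of them were lower and 12.9% higher (median log2 fold change -0.0078). Of the 119 with 3 or more, 13.4% were lower and 9.24% were higher, with a median of -0.07. Over all 6176 genes with a window, 11.7% were lower and 14.8% higher. These groups are not separate from the genes described here, since 9 of the 10 have 2 or more STREs. *TPS1*, *TPS2*, *TSL1*, *NTH1* and *GLC3* are in the group with 3 or more. *TPS1* and *TPS2*, with *HXK1* and *PGM1*, are among the lower genes of that group. *NTH2*, also called lower, has 0 STREs in its window, and *GSY1* has 2. Of 4 genes of upper glycolysis, a pathway that also draws on glucose 6-phosphate, *FBA1* was lower (-0.49 in log2, adjusted p = 0.049 from limma). Its adjusted p was 0.103 to 0.178 without WT replicate A or B or *ths1-C268A* replicate A or C. *PGI1*, *PFK1* and *PFK2* had log2 fold changes of -0.26, -0.23 and -0.26 and did not pass. The difference between the 10 genes and these groups was not tested.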

How the data were processed

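RNA from 3 *ths1-C268A* and 3 WT cultures was extracted with a Qiagen kit and sequenced by Novogene. The authors deposited FPKM per gene with coordinates and gene lengths. The submitters' processing notes name HISAT2. Counting tool, annotation, strand and poly(A) selection are each not given in the sources used here. If strand was not kept, a gene's reads include those of any antisense row.

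Of 6045 genes with a RefSeq locus tag, 6033 had the coordinates of R64. FPKM times gene length gave whole fragments, within 0.01, for 100% of values above 0. Samples of a strain were checked for repeats (chi-square per degree of freedom of 7.72 or more). Strains were compared with limma 3.58.1 in R 4.3.3 (empirical Bayes with a trend, two-sided) on log2(FPKM + 1), a scale that understates the change of low genes, for the 6447 genes that averaged 1 FPKM or more. The p-values from limma weigh the difference between strains against the spread between these cultures, moderated over all genes. Whether the cultures of a strain came from separate clones is not given in the sources used here. The paper names no test for the transcriptome.

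The 10 genes and all gene lists were chosen with earlier results of these data known. Named genes were the 10, the genes of each pathway list that passed or else its 2 most abundant, the 4 smallest p of each comparison list, *THS1* and strain markers. *MAL11*, *ATH1*, *SGA1*, *UGP1* and *PGM2*, with *HXK2*, were named after their values were seen. Motifs and coding sequences were read from RefSeq R64. Paralogue ratios used exact permutation tests (scipy 1.17.1). Alternatives were pseudocounts of 0.1 and 5 FPKM, dropping the filter or raising it to 10 FPKM, median-ratio scaling, scaling protein-coding genes to the same total, testing only those genes, no trend, limma-voom on the fragments with TMM, loess correction for length and GC content (span 0.5), the replicate letters as a block, and each sample left out. Scripts were tested on simulated data. The 4 emptied lines of the table are not analysed here.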

Additional observations from a re-analysis of the deposited data

How the results depend on the processing

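The calls of *TPS1* and *GSY1* were kept under all 11 other settings and without any 1 sample (adjusted p from limma of 0.00375 to 0.0487 and 0.00254 to 0.0398), and *TPS2* was called under the 11 settings (0.00983 to 0.044). Without 1 sample, the number of the 10 genes called lower was 2 to 4 and called higher 0 to 1. The log2 fold change then ran from -0.61 to -0.369 for *TPS2*, from 0.171 to 0.326 for *TPS3* and from -0.324 to -0.0497 for *GLC3*, and from -0.173 to 0.0443 for *GPH1*, which was reversed without *ths1-C268A* replicate A. Over all genes, 356 to 1088 were higher and 290 to 1057 lower without 1 sample, and 524 and 1285 when protein-coding genes were scaled to the same total, which made 29% of calls higher against 53.9% as deposited. That scaling also gave 10 lower and 1 higher of the 40 other pathway genes and 8 lower of the 24 comparison genes. With limma-voom 8 of the 40 were lower, and 1 was higher without the trend and with the replicate block. Without 1 sample, 1 to 7 of the 40 were lower and 1 to 9 higher, and 1 to 3 of the 24 comparison genes were lower and 0 to 1 higher. Reversed without 1 sample were *GLG2* (range -0.1508 to 0.0967; 0.0188 without WT replicate C, 0.0037 and 0.0967 without *ths1-C268A* replicate A or B) and *YAK1* (range -0.14 to 0.0189; 0.0189 without *ths1-C268A* replicate B), neither past the test. *FBA1* lost its call with a pseudocount of 0.1 (adjusted p = 0.0508 from limma), no filter (0.0629), no trend (0.0576) and the length and GC correction (0.0704). The cause of these changes was not tested.

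Same-lettered samples did not deviate together (correlations of -0.23, 0.06 and -0.01), and none of the 3 *ths1-C268A* samples correlated best with its own letter, so the letters were not taken as pairs. With the replicate block, 683 genes were higher and 593 lower, the same 3 of the 10 genes were lower, and the difference in the log2 ratio was -0.40 for *TSL1* to *TPS3* and 0.36 for *GSY2* to *GSY1*. With 3 samples per strain, the number of cultures limits the precision of these genes more than depth does.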
